A study of Mus musculus with 24 samples.

Results

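The genes of this report are 9 cytokines, cytokine receptors and transcription factors that define the T helper lineages, measured in whole heart RNA during experimental autoimmune myocarditis (EAM). They were Ifng, Tbx21, Il12rb1 and Il12rb2 of the Th1 lineage, Il17a and Il17ra of the IL-17 pathway, Gata3 and Il4 of the Th2 lineage, and Foxp3 of regulatory T cells. They were taken by symbol from the Ensembl identifiers of the count table, which lists 41388 genes, and all 9 were found. RNA was sequenced from 24 hearts of male wild type Balb/c mice immunized at 8 to 10 weeks of age, 4 EAM and 4 control hearts at each of days 10, 15 and 21 after immunization (D10, D15 and D21). EAM mice received a peptide of α-cardiac myosin heavy chain in supplemented complete Freund's adjuvant (SCFA) on days 0 and 7 and pertussis toxin on day 0. Control mice received SCFA with PBS in place of the peptide on the same days, and the same toxin, so that adjuvant and toxin were common to both groups. EAM hearts were preferred for sequencing when inflamed, and the EAM groups therefore do not sample all immunized mice.

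CD4 T cells that meet antigen take on one of several fates, each held in place by a master transcription factor. IL-12, acting through the receptor chains IL-12Rβ1 and IL-12Rβ2, drives Th1 cells, in which T-bet (Tbx21) switches on interferon-γ (Ifng). IL-6 and IL-23 favour Th17 cells, which secrete IL-17A to act on IL-17RA, a receptor chain carried by stromal and myeloid cells as well as leucocytes. IL-4 and GATA3 direct Th2 cells, and FOXP3 defines the regulatory T cells that hold the others in check. In autoimmune myocarditis the disease is carried by heart-specific CD4 T cells, and the balance among these fates is a standard way to describe it.

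The stretches of 250 bases before the RefSeq start sites of 4 of these genes, a Th1 cytokine, a Th17 cytokine, a Th2 cytokine and the regulatory T cell factor, are printed here because each of the 4 genes stands for 1 of the lineages compared. They were read from the RefSeq promoter table of GRCm38.p6, which held such windows for 7 of the 9 genes, and are written 5′ to 3′ on the strand of the gene with matches to 7 searched motifs in capitals. The Ifng window lies at chr10:118440796-118441045 on the plus strand, the Il17a window at chr1:20730655-20730904 on the plus strand and the Il4 window at chr11:53618666-53618915 on the minus strand, where its last bases touch the first annotated exon. The Foxp3 window at chrX:7580233-7580482 on the plus strand lies inside the annotated gene, before its second RefSeq start, and holds no exon.
Ifng: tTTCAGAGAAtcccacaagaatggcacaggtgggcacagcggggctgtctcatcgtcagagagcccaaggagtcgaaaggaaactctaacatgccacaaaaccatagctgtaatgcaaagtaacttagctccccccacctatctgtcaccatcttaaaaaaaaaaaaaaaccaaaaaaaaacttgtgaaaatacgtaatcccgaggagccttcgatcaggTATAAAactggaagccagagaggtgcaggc
Il17a: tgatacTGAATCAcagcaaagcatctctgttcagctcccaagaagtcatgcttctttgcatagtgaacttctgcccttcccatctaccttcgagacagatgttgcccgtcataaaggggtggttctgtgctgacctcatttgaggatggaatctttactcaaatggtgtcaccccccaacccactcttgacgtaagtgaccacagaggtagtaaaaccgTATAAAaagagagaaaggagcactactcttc
Il4: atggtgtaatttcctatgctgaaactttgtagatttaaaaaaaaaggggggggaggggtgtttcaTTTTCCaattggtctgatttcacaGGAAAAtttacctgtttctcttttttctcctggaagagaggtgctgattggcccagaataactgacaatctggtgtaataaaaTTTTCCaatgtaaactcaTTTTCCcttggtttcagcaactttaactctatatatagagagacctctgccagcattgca
Foxp3: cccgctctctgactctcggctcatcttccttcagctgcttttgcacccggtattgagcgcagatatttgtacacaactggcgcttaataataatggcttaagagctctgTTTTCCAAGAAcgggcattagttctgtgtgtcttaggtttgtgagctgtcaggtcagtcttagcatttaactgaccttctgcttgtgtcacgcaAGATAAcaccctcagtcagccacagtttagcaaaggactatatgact
Counting back from the start site, the capitals in Ifng are a STAT motif (TTCNNNGAA) whose first base is at -249 and a TATA motif (TATAAA) at -30. In Il17a they are an AP-1 motif (TGANTCA) at -244 and a TATA motif at -31. In Il4 they are 4 NFAT motifs (GGAAAA, all but the second on the opposite strand) at -185, -161, -78 and -60, and in Foxp3 a GATA motif (AGATAA) at -47 and an NFAT motif on the opposite strand at -141 that overlaps a STAT motif at -139. Both strands were searched, also for a T-box core (GTGTGA) and a forkhead motif (TGTTTAC). Among 32851 RefSeq windows of this length, 7.02% hold the STAT motif, 12.4% the TATA motif, 6.75% the AP-1 motif, 20.4% the NFAT motif, 9.99% the GATA motif, 12.3% the T-box core and 3.17% the forkhead motif, so that each is a short and common string of letters. The windows of Tbx21 (chr11:97115332-97115581) and Gata3 (chr2:9878601-9878850) held none of them, nor did another Il4 window inside the gene (chr11:53617339-53617588). Another Foxp3 window (chrX:7579426-7579675) held a TATA motif at -32, and that of Il12rb2 (chr6:67376189-67376438) held a STAT motif at -123 and a T-box core at -80.

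Total counts per heart lay between 15814863 and 24980864, at which 3 reads, the limit that a count of 0 allows, correspond to between 0.12 and 0.19 CPM, which is the count divided by the size of its library and put on a common scale. Levels are CPM after TMM normalization. The 4 D21 EAM libraries carry a library code that none of the other 20 libraries carries, so that at D21 library code and EAM cannot be told apart. EAM replicate 1 at D10 stood apart from the other 3 EAM hearts of that day in most of these genes, and the D10 values of the members and lists are given with and without it. Its macrophage markers summed to 2382 CPM against 637 to 1232 CPM in the other 3 hearts. Its neutrophil markers summed to 814 against 166 to 330 CPM and its cardiomyocyte markers to 13502 against 21125 to 24579 CPM. T cells were followed by their markers. The summed level of 10 T cell markers was between 3.12 and 7.42 CPM in the 12 control hearts. In EAM hearts it was 5.21 to 35.6 CPM at D10, or at most 13.7 CPM without replicate 1. It was 58.0 to 82.0 CPM in EAM hearts at D15 and 21.7 to 83.8 CPM at D21. Of these 10 markers 10 were called higher at D15 and 8 at D21. Markers of natural killer (NK) cells, another source of interferon-γ, moved alongside, with a sum over 6 markers of at most 3.43 CPM in control hearts, 24.9 to 53.4 CPM in D15 EAM hearts and 7.69 to 49.8 CPM in D21 EAM hearts. At D10 the NK sum was 28.8 CPM in EAM replicate 1 and 2.21 to 7.85 CPM in the other EAM hearts. Summed markers of immature thymocytes were 25.2 to 30.7 CPM in D15 EAM against 3.77 to 5.13 CPM in D15 control hearts, and 16.8 CPM in D10 EAM replicate 1 against at most 4.57 CPM in the other D10 EAM hearts. Nearly all of these reads were of Cd1d1, which myeloid cells carry as well, while the defining genes Rag1, Rag2 and Ptcra had 0 to 4 reads in any group of 4 hearts and Dntt at most 42. In bulk RNA a change in the number of cells of a type and a change in RNA per cell cannot be told apart, and the part of either in the results below was not tested.

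Each day was compared with edgeR's quasi-likelihood test, and a gene was called when its Benjamini-Hochberg adjusted p was under 0.01 and its change at least 2-fold. At D15, 7 of the 9 genes rose in EAM hearts (Ifng, Tbx21, Il12rb1, Il17a, Il17ra, Gata3 and Foxp3), where 18.1% of the 15693 genes tested were called higher. Il12rb2 passed the p limit with a change just under 2-fold, and Il4 did not differ beyond the spread between hearts. Of the called genes, 5 (Ifng, Tbx21, Il12rb1, Il17a and Foxp3) had so few reads in control hearts that they passed the filter on low counts only through the EAM hearts, so their number is a description and not support for a change of the set. At D21, Il12rb1 and Foxp3 were called among 6 tested genes (4.13% of 15266 genes were called higher), both again past the filter only through EAM hearts, and at D10 none of 4 tested genes was called (0.0% of 15029 genes).

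**Figure D1:**
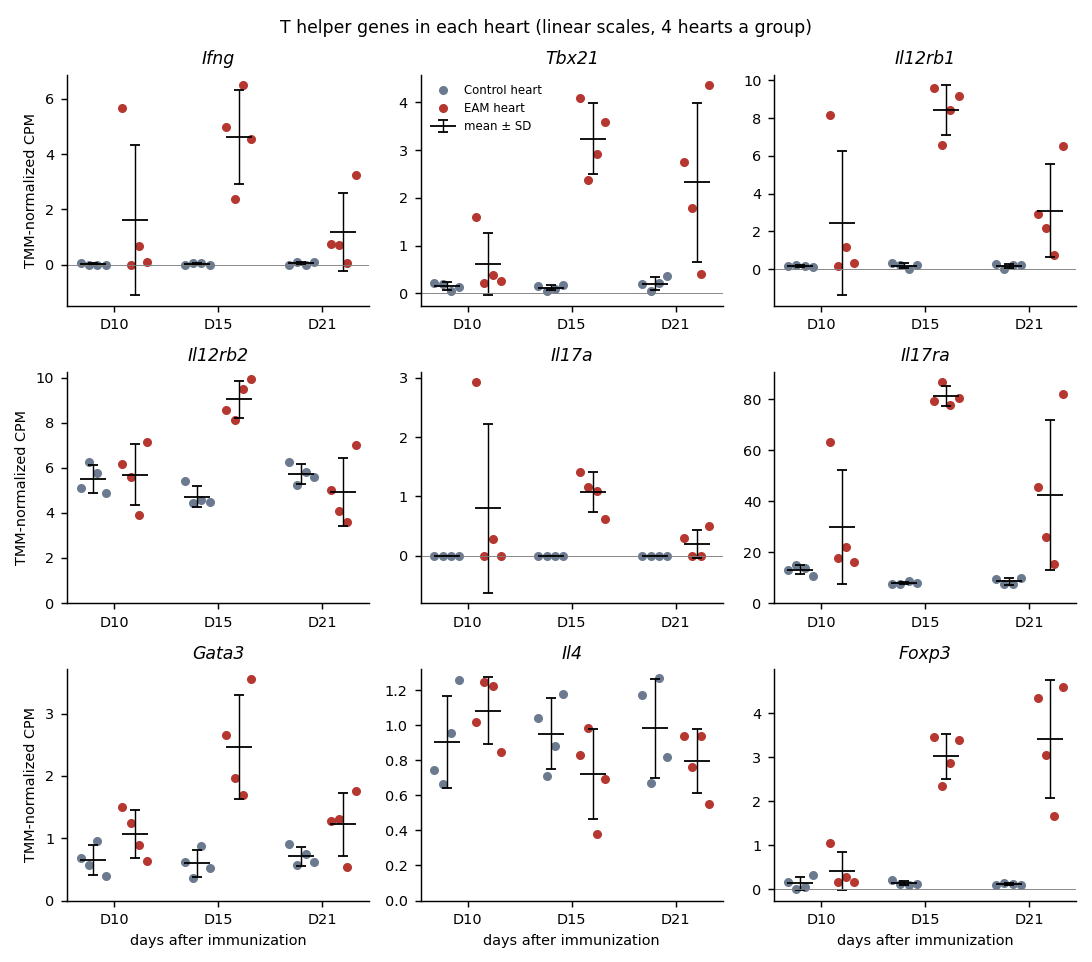
TMM-normalized CPM (linear vertical axes) of the 9 T helper genes in each heart against days after immunization, with grey points for control hearts, red points for EAM hearts and bars for the mean ± SD of 4 hearts. All EAM hearts lie above all control hearts at D15 in 8 of the 9 panels (34.6% of all genes tested had no such overlap), Il4 overlaps at every day, and at D10 EAM replicate 1 is far above the other EAM hearts for Ifng (5.66 CPM), Il12rb1 (8.13 CPM) and Il17a (2.92 CPM).

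Ifng (ENSMUSG00000055170, chr10:118441046-118445892, plus strand of GRCm38) encodes interferon-γ, the cytokine that arms macrophages and defines Th1 cells. Its counts were 0 to 2 in each of the 12 control hearts. In EAM hearts the counts were 128, 0, 12 and 2 at D10, 120, 68, 154 and 118 at D15 and 15, 13, 1 and 59 at D21. At D15 all EAM hearts were above all control hearts, while at D10 and D21 at least 1 EAM heart was within the range of the controls. In CPM, D15 EAM hearts had 5.0, 2.38, 6.5 and 4.55 (4.61 ± 1.70, SD, n = 4) against 0.0277 ± 0.0321 in controls, a log2 fold change of 7.14 (SE 0.59, adjusted p = 6.01e-06 by edgeR's test). Over the pooled reads of the group the ratio was 163, with a 95% exact counting interval of 44.9 to 1350 because the controls held only 2 reads. The level at D21 (1.19 ± 1.41 CPM) was carried largely by EAM replicate 4, with 3.26 CPM, and at D10 (1.61 ± 2.72 CPM) by replicate 1, with 5.66 CPM against a mean of 0.258 CPM in the other 3 EAM hearts. Neither day had enough hearts with 10 reads for the fitted test, and an exact two-sided permutation test of the mean difference in CPM gave p = 0.143 at D10, with and without EAM replicate 1, and p = 0.0857 at D21, where the smallest p that 4 against 4 hearts allow is 0.0286.

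Tbx21 (ENSMUSG00000001444, chr11:97098071-97115331, minus strand) encodes T-bet, the Th1 master factor, which NK cells also use. Control hearts had between 0.0480 and 0.359 CPM. EAM hearts had 1.59, 0.227, 0.390 and 0.264 CPM at D10, 4.08, 2.38, 2.91 and 3.59 CPM at D15 and 2.76, 1.80, 0.401 and 4.36 CPM at D21. The EAM and control hearts did not overlap at D15 or at D21, with the third EAM heart at D21 just above the highest control (0.359 CPM). No overlap with EAM higher was seen for 34.6% of all genes tested at D15 and 17.8% at D21. Tbx21 rose at D15 by 4.68 on the log2 scale (SE 0.32, adjusted p = 1.90e-06 by the same edgeR test). At D10 the exact permutation test gave p = 0.0571 with all hearts and p = 0.0857 without EAM replicate 1, whose absence lowered the EAM mean of Tbx21 to 0.294 CPM. At D21 only 3 hearts had 10 reads, which is under the filter, and the exact permutation test gave p = 0.0286, the smallest it can give. With a filter of 10 reads in at least 3 samples, chosen after seeing the data, the fitted D21 change of Tbx21 was 3.50 with an adjusted p of 0.0117 in edgeR's test, which is not a call, while edgeR called it without a read filter (3.47, adjusted p = 0.00934) and in a joint fit of all 24 hearts (3.47, adjusted p = 0.000407).

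The receptor for IL-12 is a pair of chains, and these behaved differently. Il12rb1 (ENSMUSG00000000791, chr8:70808449-70821424, plus strand) encodes the chain shared with the IL-23 receptor, and its control counts were 0 to 6 per heart. In EAM hearts it had 8.13, 0.170, 1.17 and 0.317 CPM at D10, 9.57, 6.59, 8.4 and 9.15 CPM at D15 and 2.91, 2.18, 0.735 and 6.51 CPM at D21, against at most 0.313 CPM in any control heart. The EAM hearts were above the controls of the day in all 4 cases at D15 and D21, and in 3 of 4 at D10, where the exact permutation test gave p = 0.0857 with and without EAM replicate 1 although the pooled ratio of Il12rb1 was 16.2 with that heart and 3.21 without it. Il12rb1 rose by 5.44 on the log2 scale at D15 (SE 0.38, adjusted p = 2.06e-06) and by 4.18 at D21 (SE 0.81, adjusted p = 0.00935), both by edgeR's quasi-likelihood test. The D21 call was narrow, and without any 1 of control replicates 1 to 4 the adjusted p was between 0.0291 and 0.0359. With the filter at 10 reads in at least 3 samples it was also lost without EAM replicate 1, 2 or 4, at adjusted p between 0.0115 and 0.0269, and limma-voom did not call Il12rb1 at D21 (adjusted p = 0.0217).

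Il12rb2 (ENSMUSG00000018341, chr6:67291318-67376188, minus strand) encodes the signalling chain that Th1 cells keep and Th2 cells lose. Its level in control hearts was 5.50 ± 0.630 CPM at D10, 4.72 ± 0.469 CPM at D15 and 5.72 ± 0.428 CPM at D21, with reads in every heart. EAM hearts had 6.15, 5.61, 3.90 and 7.13 CPM at D10, 8.58, 8.13, 9.50 and 9.92 CPM at D15 and 5.03, 4.09, 3.61 and 7.01 CPM at D21. All D15 EAM hearts were above all D15 controls, and at D10 and D21 the groups overlapped, with 3 of 4 EAM hearts at D21 below every control. The D15 difference was 0.97 on the log2 scale (1.96-fold, SE 0.11, adjusted p = 5.04e-05 in edgeR's test), just short of the 2-fold limit. It passed that limit without control replicate 1 (1.05), EAM replicate 1 (1.02) or EAM replicate 2 (1.05). At D10 the difference was 0.04 (adjusted p = 0.923; -0.000744 without EAM replicate 1) and at D21 -0.18 (adjusted p = 0.537). Exons of Il12rb2 overlap those of Serbp1 on the opposite strand, a gene at mean levels between 275 and 325 CPM in all 6 groups. No source used here gives the strand setting of the counting, so reads from the shared stretch cannot be assigned to either gene with certainty.

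Il17a (ENSMUSG00000025929, chr1:20730905-20734496, plus strand) encodes IL-17A, the signature cytokine of Th17 cells and of γδ T cells. It had 0 reads in all 12 control hearts. In EAM hearts its counts were 66, 0, 5 and 0 at D10, 34, 33, 26 and 16 at D15 and 6, 0, 0 and 9 at D21. Only at D15 did every EAM heart hold reads, at 1.42, 1.16, 1.10 and 0.618 CPM. Taking 3 reads over the 4 controls as the floor, Il17a was at least 25.8-fold higher in EAM at D15 (adjusted p = 0.000189 in edgeR's test, but 0.0118 and not a call in a joint fit of all 24 hearts). At D10 the bound was at least 21.5-fold, but 66 of the 71 reads came from EAM replicate 1, and without that heart it was at least 2.14-fold. At D21 all reads came from 2 hearts, and the exact permutation test over hearts gave p = 0.429 at D10, with and without replicate 1, and at D21. The highest Il17a level of the 24 hearts was that of D10 EAM replicate 1, at 2.92 CPM. Its relative Il17f, looked at after these values were seen, had summed counts of 38 in D10, 19 in D15 and 2 in D21 EAM hearts and 0 in controls. Of the 38 reads of Il17f at D10, 29 came from EAM replicate 1.

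Il17ra (ENSMUSG00000002897, chr6:120463247-120487559, plus strand) encodes the receptor chain through which IL-17A and IL-17F signal. It was read in every control heart, at 13.1 ± 1.80 CPM at D10, 7.89 ± 0.467 CPM at D15 and 8.52 ± 1.29 CPM at D21. EAM hearts had 63.2, 17.7, 21.9 and 16.2 CPM at D10, 79.4, 86.8, 77.8 and 80.7 CPM at D15 and 45.7, 25.9, 15.4 and 82.2 CPM at D21. Il17ra was the only one of the 9 genes in which EAM hearts were above controls without overlap at all 3 days (4.41% of all genes at D10 had no overlap with EAM higher). At D15 it rose 10.6-fold, with a log2 fold change of 3.4 whose SE was 0.068 (adjusted p = 5.63e-09, edgeR's test). At D10 the fitted change was 1.17 (SE 0.42, adjusted p = 0.328), and 0.49 without EAM replicate 1. At D21 it was 2.35 (SE 0.48, adjusted p = 0.0110), just outside the limit, with the 4 EAM hearts spread from 15.4 to 82.2 CPM. The edgeR likelihood ratio test (adjusted p = 1.85e-05) and DESeq2 (adjusted p = 6.04e-06) called Il17ra at D21. Without D21 EAM replicate 3 the adjusted p for Il17ra was 0.00112. The leucocyte gene Ptprc, which encodes CD45, had mean levels of 276 CPM in D15 EAM and 131 CPM in D21 EAM hearts against 18.0 and 22.4 CPM in the controls, and the part of leucocyte content in the change of Il17ra was not tested.

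Gata3 (ENSMUSG00000015619, chr2:9857078-9890034, minus strand) encodes the Th2 master factor, which all T cells also need as they mature. Control hearts had between 0.354 and 0.955 CPM. EAM hearts had 1.5, 1.25, 0.891 and 0.634 CPM at D10, 2.66, 1.96, 1.69 and 3.55 CPM at D15 and 1.28, 1.31, 0.535 and 1.77 CPM at D21. The groups were apart only at D15, and EAM replicate 3 at D21 was below every control of that day. Gata3 rose 4.17-fold at D15 (log2 fold change 2.06, SE 0.33, adjusted p = 0.000351 in edgeR's test). The changes of Gata3 were 0.70 (SE 0.35, adjusted p = 0.347) at D10, or 0.48 without EAM replicate 1 (adjusted p = 0.588), and 0.81 (SE 0.36, adjusted p = 0.107) at D21. The genes annotated over its exons, Gm13256 and 9230102O04Rik, had 0 reads in all groups.

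Il4 (ENSMUSG00000000869, chr11:53602982-53618669, minus strand) encodes the cytokine that both induces and is made by Th2 cells, and mast cells and basophils make it too. Control hearts had 0.742, 0.666, 0.955 and 1.26 CPM at D10, 1.04, 0.709, 0.881 and 1.18 CPM at D15 and 1.17, 0.672, 1.27 and 0.820 CPM at D21. EAM hearts had 1.02, 1.25, 1.23 and 0.845 CPM at D10, 0.833, 0.981, 0.380 and 0.695 CPM at D15 and 0.937, 0.763, 0.936 and 0.552 CPM at D21. Control and EAM hearts overlapped at every day, and Il4 alone among the cytokines was read in all control hearts, with 12 to 29 reads each. The fitted changes were 0.25 at D10 (SE 0.25, adjusted p = 0.585; 0.29 without EAM replicate 1), -0.35 at D15 (SE 0.30, adjusted p = 0.316) and -0.29 at D21 (SE 0.28, adjusted p = 0.448) in edgeR's test. At D15 the pooled ratio was 0.770 with a 95% exact counting interval of 0.548 to 1.08, which does not cover the spread between hearts. The sum over 7 mast cell markers was 17.0 to 22.9 CPM in D15 control and 23.0 to 28.1 CPM in D15 EAM hearts, without overlap. At D21 it was 21.2 to 27.3 against 15.4 to 23.8 CPM. Most reads of this sum were of Kit, with 1025 in D15 control and 2028 in D15 EAM hearts. At D15 Kit changed by 0.52 on the log2 scale, Cma1 by 0.37, Tpsb2 by 0.31, Cpa3 by 0.17 and Mcpt4 by -0.69. None of the 7 markers was called at D10 or D15. At D21 only Mcpt4, which encodes a mast cell protease, was called, and lower (-1.78). Basophil and eosinophil markers summed to 0.0438 to 0.512 CPM in control hearts and to 3.0 to 7.5 CPM in D15 EAM hearts. Whether any of these cells carried the Il4 reads was not tested.

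Foxp3 (ENSMUSG00000039521, chrX:7573644-7595245, plus strand) encodes the factor that sets the regulatory T cell programme. Control hearts had between 0 and 0.331 CPM. EAM hearts had 1.06, 0.170, 0.279 and 0.158 CPM at D10, 3.46, 2.35, 2.87 and 3.4 CPM at D15 and 4.34, 3.05, 1.67 and 4.58 CPM at D21. There was no overlap at D15 or D21, and the lowest EAM heart at D21 (1.67 CPM) was far above the highest control of that day (0.144 CPM). Foxp3 rose 21.6-fold at D15 (log2 fold change 4.43, SE 0.27, adjusted p = 9.25e-07) and 27.6-fold at D21 (4.78, SE 0.43, adjusted p = 0.00254) by edgeR's test. Leaving out any 1 of the 4 D21 controls ended the call, with adjusted p between 0.0113 and 0.0204, while the fitted change stayed between 4.70 and 4.86. At D10 the permutation test gave p = 0.314 and the pooled ratio was 3.53, with a 95% exact interval of 1.66 to 8.34 for counting error. Without EAM replicate 1 the D10 ratio of Foxp3 was 1.57 (0.591 to 4.28), and the permutation p was 0.6. Its mean in EAM hearts was 3.02 ± 0.518 CPM at D15 and 3.41 ± 1.34 CPM at D21, a difference smaller than the spread, whereas the mean of every other member called at D15 was lower at D21. Among the genes that overlap Foxp3, Ppp1r3f on the opposite strand had 8.61 ± 0.854 CPM in the controls of D15 and 4.58 ± 1.08 CPM in its EAM hearts, and Flicr, on the same strand, at most 21 reads in any group of 4 hearts.

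**Figure D2:**
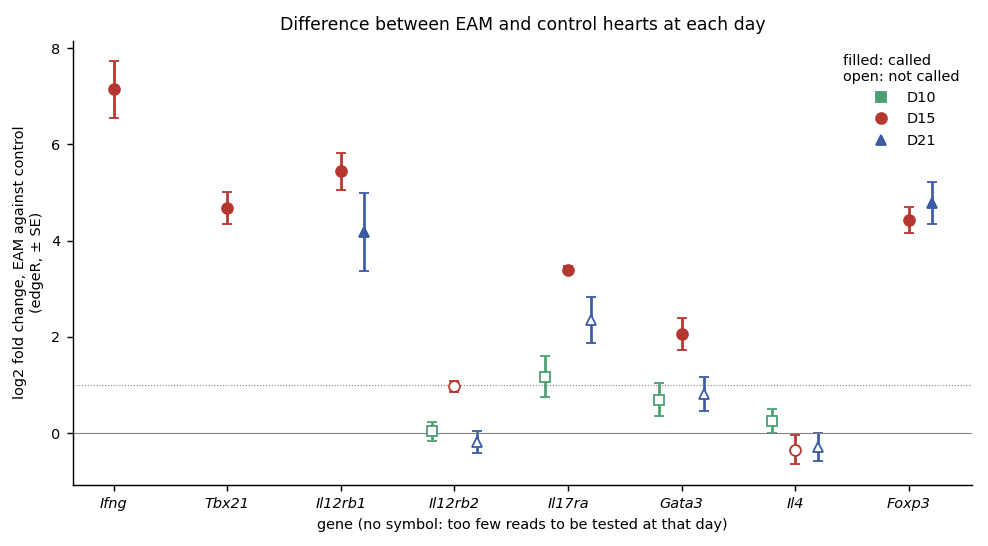
Fitted log2 fold change of EAM against control hearts (vertical axis, ± SE, edgeR) for each gene at D10, D15 and D21, filled where called, open where not, with no symbol where the gene had too few reads and Il17a left out because its controls held 0 reads. The dotted line is a 2-fold change. D15 values run from 7.14 for Ifng to -0.35 for Il4, and Foxp3 is the one called gene placed higher at D21 (4.78) than at D15 (4.43).

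Whether the EAM effect differed between days was tested in a fit of all 24 hearts. From D10 to D15 the effect on Il17ra grew by 2.18 on the log2 scale (SE 0.57, adjusted p = 0.00538 by edgeR's test), the only called change among the 9 genes, where 5.38% of 16318 genes were called in this direction. Part of it was a lower level in controls, from 10.8 to 15.1 CPM at D10 to 7.50 to 8.55 CPM at D15. This control difference was -0.74 and not a call (adjusted p = 0.860 by edgeR's test). The growth of the effect was 0.88 for Il12rb2 (adjusted p = 0.00828, under 2-fold), 2.70 for Foxp3 (adjusted p = 0.0334), 2.64 for Tbx21 (adjusted p = 0.0669) and 1.31 for Gata3 (adjusted p = 0.0408), none of them a call. These values lean on D10 EAM replicate 1. Without it the growth was 2.86 for Il17ra, 3.76 for Tbx21 (adjusted p = 0.00563) and 3.78 for Foxp3 (adjusted p = 0.00131), and all 3 were called, where 12.3% of all genes were called in this direction without that heart. Foxp3 was then also called between D10 and D21 (4.15, adjusted p = 0.00917), where 0.528% of all genes were called higher without that heart and 0.0735% with it. The Il17ra call was lost, with adjusted p between 0.0103 and 0.0132, when any 1 of 9 other hearts was left out, namely D10 control replicate 2, D10 EAM replicates 2, 3 and 4, D15 control replicates 1, 2 and 4 and D15 EAM replicates 2 and 4.

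From D15 to D21 the effect on Il12rb2 fell by 1.14 on the log2 scale (SE 0.25, adjusted p = 0.00346 by edgeR's test), where 0.919% of all genes were called lower in this contrast. It was again the only call among the 9 genes, and it was lost without D21 EAM replicate 2 (adjusted p = 0.0104). The corresponding differences were -2.61 for Ifng (SE 2.95, adjusted p = 0.519), -1.16 for Tbx21 (adjusted p = 0.409), -1.25 for Il12rb1 (adjusted p = 0.567), -1.05 for Il17ra (SE 0.57, adjusted p = 0.170), -1.23 for Gata3 (SE 0.50, adjusted p = 0.0686) and 0.37 for Foxp3 (SE 0.91, adjusted p = 0.780). The Ifng means of EAM hearts alone, 4.61 ± 1.70 CPM at D15 and 1.19 ± 1.41 CPM at D21, lay further apart than either SD, and the highest D21 heart (3.26 CPM) was above the lowest D15 heart (2.38 CPM). In this contrast day and library code of the EAM hearts cannot be told apart. Between control hearts of different days none of the 9 genes was called (0.0919% of all genes for D15 against D10, 0.0% for D21 against D15 and 0.214% for D21 against D10), and the smallest adjusted p among them was 0.595, for Il17ra between D21 and D10.

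Levels of these genes can follow the number of T cells. In EAM hearts they were also set against the summed level of Cd3d, Cd3e and Cd3g, which encode the CD3 chains of the T cell receptor. Ifng stood at 20.9, 11.0, 40.4 and 20.6% of that sum in the 4 D15 EAM hearts and at 2.75, 4.94, 0.990 and 12.3% at D21. Il17a stood at 5.93, 5.32, 6.82 and 2.79% at D15 and at 1.10, 0, 0 and 1.88% at D21. The Il17a hearts of the days did not overlap, though D21 rests on 15 reads in all, and for Ifng only the highest D21 heart was above the lowest D15 heart.

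Foxp3 went the other way, from 14.5, 10.8, 17.8 and 15.3% at D15 to 16.1, 21.3, 24.8 and 17.3% at D21. Il12rb1 stood at 40.1, 30.3, 52.2 and 41.3% at D15 and at 10.8, 15.2, 10.9 and 24.6% at D21, without overlap. A test was made for the 4 genes with at least 10 reads in every heart of both groups. Of these, Il17ra stood at 333 to 484% of the CD3 sum at D15 and at 170 to 310% at D21. Il12rb2 stood at 36.0 to 59.1% at D15 and at 18.7 to 53.5% at D21. In D15 control hearts Il17ra stood at 538 to 838% and Il12rb2 at 313 to 475%. Which cells carried their reads was not tested. Relative to the CD3 sum, Il12rb1 was lower at D21 by 1.47 on the log2 scale and Il17ra by 0.86, each with p = 0.0286, the smallest that the exact two-sided permutation test allows. The differences were -0.56 for Il12rb2 (exact permutation p = 0.171) and 0.44 for Foxp3 (exact permutation p = 0.0857). These 4 p-values are not adjusted, day and library code cannot be told apart here either, and the outcome turned on the gene used as denominator. Against Ptprc, Foxp3 was higher at D21 by 1.38 (exact permutation p = 0.0286) and Il17ra differed by 0.07 (exact permutation p = 0.6). At D10, EAM replicate 1 had Ifng at 48.9%, Il12rb1 at 70.2% and Il17a at 25.2% of its CD3 sum, each above all 8 EAM hearts of the later days.

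**Figure D3:**
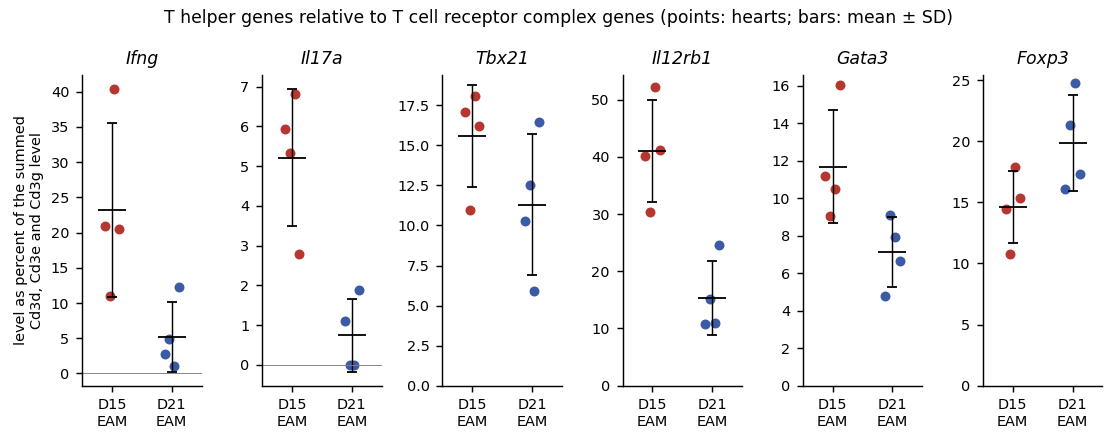
Level of 6 T helper genes as percent of the summed level of Cd3d, Cd3e and Cd3g (vertical axes, linear) in the 4 EAM hearts of D15 (red) and of D21 (blue), with bars for mean ± SD. Il12rb1, Il17a and Ifng lie lower at D21, with Ifng at most 12.3% there and at least 11.0% at D15, and Foxp3 lies higher, at 16.1 to 24.8% against 10.8 to 17.8%.

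Levels of different genes can be compared per kilobase of annotated exon. In D15 EAM hearts Il17ra had the highest level, 9.37 ± 0.454 CPM per kb, followed by Ifng with 3.56 ± 1.31, Il12rb2 with 2.38 ± 0.217, Il12rb1 with 2.05 ± 0.321 and Tbx21 with 1.30 ± 0.300. Il17a (0.915 ± 0.284), Foxp3 (0.659 ± 0.113), Gata3 (0.620 ± 0.209) and Il4 (0.589 ± 0.209 CPM per kb) closed the order. Only Il17ra against Ifng and Il12rb1 against Tbx21 were neighbours whose ranges of mean ± SD did not meet.

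Most members moved together across hearts, with Il4 and in part Il12rb2 and Gata3 as exceptions. Over all 24 hearts, Pearson's r of log2(CPM + 1) was 0.972 for Ifng with Il12rb1, 0.961 for Il12rb1 with Il17ra and 0.95 for Tbx21 with Foxp3, and after subtracting each group's mean it was still 0.951, 0.909 and 0.918. Il12rb2 had r between 0.413 (Foxp3) and 0.716 (Gata3) with the other members save Il4, and between 0.193 (Il17a) and 0.571 (Tbx21) after subtracting group means. Gata3 had r between 0.702 (Il17a) and 0.877 (Il17ra) with the other members save Il4, and between 0.319 (Il17a) and 0.670 (Tbx21) after subtracting group means. Il4 had r between -0.449 and -0.206 with the other 8 genes. Such hearts share the difference between EAM and control and the degree of inflammation, so these values describe the samples. Among all genes, those most like Il17ra were B4galt5 (r = 0.994), Tmem173 (0.992) and Slfn2 (0.992). Those most like Il12rb2 were Fndc3b (0.942), Cdk12 (0.928) and Dnajc13 (0.923), and those most like Gata3 were Ankrd55 (0.945), Glis3 (0.932) and Trps1 (0.932). No gene tracked Il4 so closely, the nearest being Kpna2 (0.641), Snx14 (0.627) and Gdpd1 (0.624).

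The other genes of each lineage were followed as lists, to be read against the shares of all genes called higher, 18.1% at D15 and 4.13% at D21. Genes with under 10 reads in every control heart passed the filter only through EAM hearts, and at D15 all such genes of the lists were called, so the counts and medians describe the lists and support nothing further. The D21 calls hang on single hearts. Without any 1 of the 4 D21 control hearts 0 genes of the whole table were called higher by edgeR's test, with 5633 to 5959 genes at an unadjusted p under 0.05, so that every listed D21 call ended, and without EAM replicate 1 or 2 only 4 and 8 genes were called higher. Of a Th1 list of 23 further genes, 17 of 21 tested rose at D15 (median log2 fold change 3.09, against 0.02 over all genes), 6 of them past the filter only through EAM hearts. At D21 8 of 18 rose (median 2.21), and at D10 0 of 15 were called (median 1.42, or 0.44 without EAM replicate 1). The inhibitory receptor Havcr2, known as TIM-3, went from 0.732 CPM in D15 control hearts to 26.7 ± 4.11 CPM (log2 fold change 5.22, SE 0.16, adjusted p = 1.80e-08). Il18rap, a chain of the IL-18 receptor, rose by 5.20 (SE 0.14) to 38.9 ± 3.77 CPM. Both were also called at D21, at 3.56 and 2.84. The kinase gene Tyk2, which serves the IL-12 receptor among others, was the smallest call of the list, at 1.0 (SE 0.07). The IL-12 subunit Il12b, named after its values were seen, had 32 reads in D15 EAM, 50 in D21 EAM and 0 and 3 in the corresponding controls.

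A regulatory T cell list of 16 genes had 12 of 15 tested genes higher at D15 (median 2.82), 3 of them (Tigit, Tnfrsf4 and Tnfrsf9) past the filter only through EAM hearts. It had 7 of 14 higher at D21 (median 2.42) and 0 of 9 at D10 (median 0.37, or 0.16 without EAM replicate 1). Tnfrsf9, which encodes the costimulatory receptor 4-1BB, rose from 0.12 to 32.3 ± 13.1 CPM at D15 (log2 fold change 8.0, SE 0.50, adjusted p = 1.03e-06, edgeR) and was called at D21 at 6.01. Tigit, an inhibitory receptor gene, had 367 reads in D15 EAM and 1 in control hearts, a ratio of 260 with a 95% exact interval of 46.4 to 10302. Entpd1, encoding the ectonucleotidase CD39, was the smallest call (1.18, SE 0.09). These receptors are also carried by activated effector T cells. Of 7 genes of follicular helper T cells, 4 of 6 rose at D15, 3 of them past the filter only through EAM hearts, 1 of 4 rose at D21, and 0 of 3 were called at D10 (median -0.02, or -0.04 without EAM replicate 1). Pdcd1 (PD-1) was called at both days (4.5 and 4.81), Cd40lg had 155 reads against 1 at D15 (ratio 110, 95% exact interval 19.4 to 4367), Cxcr5 was the smallest call (1.24, SE 0.25), and the master factor of the lineage, Bcl6, named after its values were seen, differed by 0.05 at D15 (adjusted p = 0.715).

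The Th17 and IL-17 receptor list held 22 genes. At D15, 8 of 15 tested genes were called higher (median 1.80), at D21 1 of 12 was called higher (Il6ra, 1.55, median of the list 0.80), and at D10 0 of 12 (median 0.26, or 0.14 without EAM replicate 1). Of the 8 called at D15, 4 (Il23r, Il6, Ccr6 and Csf2) passed the filter only through EAM hearts. Il6 rose from 0.231 to 45.4 ± 18.6 CPM at D15 (log2 fold change 7.6, SE 0.42, adjusted p = 4.90e-07 by edgeR's test), and Csf2, encoding GM-CSF, had 219 reads against 1 (ratio 155, 95% exact interval 27.6 to 6158). Il1r1 was the smallest call, at 1.80 (SE 0.09).

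Of a Th2 list of 17 genes, 7 of 10 tested genes rose at D15 (median 1.62), 1 of 8 at D21 (Crlf2, 1.44, median of the list 0.73) and 0 of 8 at D10 (median 0.25, or 0.17 without EAM replicate 1). Il13 and Ccr4 passed the filter only through EAM hearts. Il13, the Th2 cytokine encoded beside Il4, had 62 reads in D15 EAM hearts and 0 in controls, so that it was at least 14.6-fold higher, unlike Il4. Ccr4, a chemokine receptor of Th2 and regulatory T cells, had 179 reads against 2 (ratio 63.4, 95% exact interval 17.3 to 528). Il13ra1, a receptor chain found widely outside the immune system, was the smallest call (1.04, SE 0.08).

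Genes known to answer each cytokine were followed in the same way, although none of them answers one cytokine alone, and the same shares of all genes, 18.1% at D15 and 4.13% at D21, apply. Every D21 call of the target lists also ended without any 1 of the D21 control hearts. Among the genes called at D15, Cxcl11 of the interferon-γ targets, Cxcl2 and Csf3 of the IL-17 targets and Arg1 of the IL-4 targets passed the filter only through EAM hearts. Of 11 interferon-γ target genes in the table, all 11 rose at D15 (median 3.63), 4 rose at D21 (Cxcl9, Cxcl10, Cxcl11 and Ciita, median of the list 2.62) and 0 of 9 tested were called at D10, where the median was 2.30, or 1.25 without EAM replicate 1. The chemokine genes Cxcl11 and Cxcl10 rose most at D15, by 8.21 (SE 0.29, adjusted p = 3.12e-08) and 7.03 (SE 0.38, adjusted p = 3.84e-07) in edgeR's test, and Gbp3, a guanylate-binding protein gene, least (2.56, SE 0.14). Of 11 IL-17 target genes, 11 rose at D15 (median 4.14), 4 of 9 at D21 (Cxcl5, Lcn2, Saa3 and Mmp3, median of the list 2.04) and 0 of 10 at D10 (median 1.5, or 0.97 without EAM replicate 1). Saa3, an acute-phase gene, went from 0.980 to 412 ± 95.5 CPM at D15 (8.74, SE 0.25, adjusted p = 1.40e-08) and Csf3, encoding G-CSF, from 0 to 519 reads, at least 123-fold higher. Zc3h12a, which encodes the RNase Regnase-1, was the smallest call (1.93, SE 0.09). Cell markers also changed at D15, though S100a8 and S100a9 are in both the IL-17 target list and the neutrophil marker list. The neutrophil markers outside the target list changed by 2.83 (Ly6g), 4.65 (Cxcr2), 4.45 (Csf3r) and 3.09 (Retnlg) on the log2 scale. Summed neutrophil markers were 518 to 827 CPM in EAM against 15.9 to 79.4 CPM in control hearts. Cardiomyocyte markers summed to 5349 to 14495 against 20197 to 23941 CPM, and fibroblast markers to 4324 to 10321 against 1305 to 1561 CPM. Of the fibroblast markers only Col1a1 (log2 fold change 4.45) and Col1a2 (3.64) were called. Pdgfra (0.73), Dcn (0.17) and Tcf21 (-0.36) were not. The part of these cells in the target values was not tested.

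Of 8 IL-4 target genes, 4 of 7 tested rose at D15 (median 1.54), 2 of 7 at D21 (Arg1 and Chil3, median 0.42) and 0 of 6 at D10 (median 0.30, or 0.29 without EAM replicate 1). Arg1, encoding arginase 1, showed the largest fold change of all listed genes with reads in controls, from 0.0978 to 383 ± 214 CPM at D15 (11.91, SE 0.65, adjusted p = 4.36e-07), and 8.45 at D21. Chil3, a chitinase-like gene of macrophages, rose by 7.90 (SE 0.93) with hearts spread widely (149 ± 169 CPM), and the mannose receptor gene Mrc1 by 1.54 (SE 0.21). Markers of macrophages, in which most of these targets are expressed, summed to 2547 to 3664 CPM in D15 EAM hearts against 418 to 467 CPM in controls, and their part in the target lists was not tested.

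**Figure D4:**
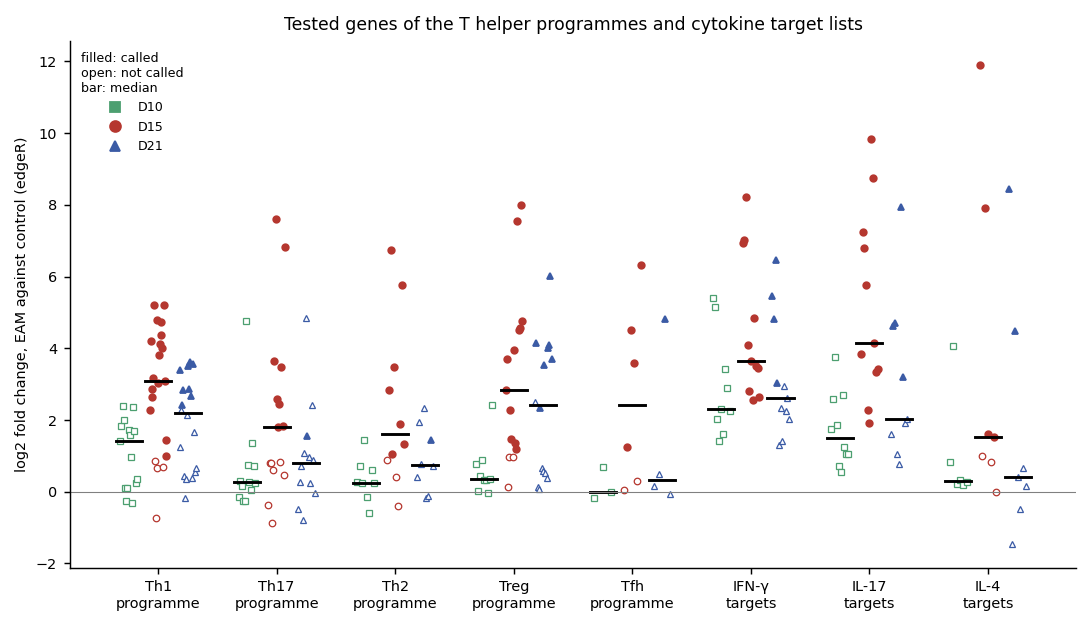
Fitted log2 fold change of EAM against control hearts (vertical axis, edgeR) for each tested gene of 5 lineage lists and 3 cytokine target lists at D10 (green squares), D15 (red circles) and D21 (blue triangles), filled where called, with bars for medians. The fitted values of Il13 and Csf3, whose controls held 0 reads, depend on the prior count. No point at D10 is filled, and all 11 interferon-γ targets and all 11 IL-17 targets are filled at D15.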

How the data were processed

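RNA from 24 mouse hearts was sequenced as read pairs from a strand-marking library kit. The authors aligned the reads to GRCm38 with HISAT2 (version 2.0.4 in the submitters' processing notes), removed duplicates with Picard, and deposited the raw counts that featureCounts assigned to each Ensembl gene. No source used here gives its strand setting. The table lists 41480 features, 41388 genes and 92 spike-ins with 0 reads. Groups and replicate numbers came from the sample labels.

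For each day, genes reaching 10 reads in 4 or more of its 8 hearts were kept, TMM-normalized and tested with edgeR 4.0.16 (quasi-likelihood test, Benjamini-Hochberg adjustment over all genes kept, limits of 0.01 and 2-fold) in R 4.3.3. Differences between days were contrasts in a fit of all 24 hearts. Each SE of an edgeR change is the size of the log2 fold change divided by the square root of the test's F statistic. It was not estimated directly by the fit. Members under the filter got an exact permutation test of CPM in Python 3.11.15 with scipy 1.17.1. Pooled-read ratios carry exact 95% intervals, which, like the limit of 3 counts, cover counting error only, as reads are not independent molecules. Exon lengths, positions and overlaps came from GENCODE M21. The p-values measure the spread between hearts. The fitting was tested on simulated data.

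The members, gene lists and rules were chosen with earlier results of these data known. Named from each list were the 2 called genes with the largest and the 1 with the smallest fitted change at D15, and any called lower. From all genes, the 3 with the highest Pearson correlation of log2(CPM + 1) with each member tested at all 3 days were named. One listed gene, Gbp5, was not analysed here, and 1 gene of the Th17 list is not reported and stays out of its counts and medians. Alternatives were the edgeR likelihood ratio test, DESeq2 1.42.0, limma-voom (limma 3.58.1), DESeq2 size factors, library totals without TMM, no filter, a joint fit of 24 hearts, a block for the replicate number, other denominators for the T cell ratios and leaving out each heart. D10 values without EAM replicate 1 and a filter of 10 reads in at least 3 samples were added after the data were seen, the filter since leaving out an EAM heart otherwise drops 5 members from the D15 test.

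What a replicate number stands for is not in the labels. Deviations of same-numbered EAM and control hearts from their group means correlated over 0.1 in 2 of 4 pairs at D10, 0 of 4 at D15 and 3 of 4 at D21, so hearts were not taken as pairs.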

Additional observations from a re-analysis of the deposited data

Results flagged for a closer look

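EAM replicate 1 at D10 was far from the other 3 EAM hearts of its day in 6 of the 9 genes by Dixon's test of the gap to the nearest heart. Its levels were 5.66 CPM for Ifng, 1.59 CPM for Tbx21, 8.13 CPM for Il12rb1, 2.92 CPM for Il17a, 63.2 CPM for Il17ra and 1.06 CPM for Foxp3. In that heart Ifng and Il12rb1 were within the range of the D15 EAM hearts and Il17a was above it, while Il17ra, Tbx21 and Foxp3 were below every D15 EAM heart. Its summed macrophage, neutrophil, NK cell and cardiomyocyte markers also lay outside the range of the other 3 D10 EAM hearts. Among control hearts, replicate 1 stood apart at D15 for Il12rb2 (5.42 CPM) and Foxp3 (0.208 CPM, or 4 reads), and replicate 1 at D10 for Ifng (0.0571 CPM, which is 1 read). In all, 9 of 51 groups tested were set apart in this way. The chance rate of this test, about 1 in 20, assumes continuous values and need not hold for groups with so few reads. The 6 from D10 EAM replicate 1 are 1 heart and not independent.

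The effect of EAM differed between days for 2 genes in the fit of all 24 hearts. For Il17ra it was larger at D15 than at D10 by 2.18 on the log2 scale (edgeR's quasi-likelihood test, adjusted p = 0.00538), a call lost without any 1 of 9 single hearts (adjusted p between 0.0103 and 0.0132). For Il12rb2 it was smaller at D21 than at D15 by a log2 difference of -1.14 (adjusted p = 0.00346), a call lost without D21 EAM replicate 2 (adjusted p = 0.0104).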

How the results depend on the processing

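Of 258 recomputed values of single members, leaving out hearts aside, 247 kept direction and side of the limits. Il12rb2 was called at D15 with library totals (1.12), and with them 2 members (Il12rb2 at 1.03 and Il17ra) were called for D15 against D10. At D21, the likelihood ratio test and DESeq2 each called 3 members (Il12rb1, Il17ra and Foxp3), limma-voom 1 (Foxp3), no filter 4 (Tbx21, Il12rb1, Il17ra and Foxp3), the joint fit the same 4, and the replicate block 1, with Il12rb1 at adjusted p = 0.0116 by edgeR's test. Il17a at D15 was lost in the joint fit only (adjusted p = 0.0118). With the block, 0 members were called for D21 against D15 (Il12rb2 -1.18, adjusted p = 0.0134), and the block changed no other member call. The sign turned for Il4 in D21 against D15 with library totals (-0.0799) and for Ifng in D21 against D10 with limma-voom (0.34), neither of them called. The cause of these moves was not tested.

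Over all genes, D10 calls were 47 by the likelihood ratio test, 52 by DESeq2 and 1 with the block, against 0, with 2292 genes at an unadjusted p under 0.05. D21 calls were 1768, 1733, 215 and 1960 by the likelihood ratio test, DESeq2, limma-voom and the joint fit, against 807. The 215 by limma-voom were 80 higher and 135 lower, against 630 higher and 177 lower in the main test. The block gave 114 calls for D21 against D15 and 83 for D21 against D10. Control hearts of D15 and D10 differed in 0 genes by limma-voom and 9 with library totals, and those of D21 and D10 in 0 by limma-voom.

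Relative to Cd4 in place of the CD3 genes, Il12rb1 was lower at D21 by a log2 ratio of -1.25 and Il17ra by -0.63 (exact permutation p = 0.0571 and 0.114). Relative to Ptprc the differences were -0.54 for Il12rb1 (p = 0.0571), 0.37 for Il12rb2, 0.0749 for Il17ra and 1.38 for Foxp3 (p = 0.0286) in the same exact permutation test.

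Leaving out 1 heart at a time gave 2 to 8 called members at D15, as 5 members then fell under the filter, and 7 to 8 with the filter at 3 samples. At D21 it gave 0 to 1, and 0 to 5 with that filter, 5 being without EAM replicate 3. It gave 0 to 3 members for D15 against D10, 0 to 1 for D21 against D15 and 0 to 1 for D21 against D10. Over all genes it gave 3998 to 4744 calls at D15 (4571 to 5483 with the filter at 3 samples), 0 to 2006 at D21 (6 to 2244), 1165 to 3740 for D15 against D10, 240 to 1565 for D21 against D15, 95 to 222 for D21 against D10, 0 to 22 for D15 against D10 controls and 0 to 12 for D21 against D10 controls. The D10 change of Il12rb2 ranged from -0.0912 to 0.199. Between days, Ifng ranged from -0.97 to 3.41 (D15 against D10) and -3.58 to 0.80 (D21 against D10), Il4 from -0.12 to 0.24 (D21 against D15), and Il12rb1 from -0.33 to 2.50 and Gata3 from -0.16 to 0.31 (D21 against D10). The ratios to CD3 ranged from -1.73 to -1.33 for Il12rb1, -0.85 to -0.34 for Il12rb2, -1.03 to -0.74 for Il17ra and 0.31 to 0.55 for Foxp3.

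Depth limits Ifng, Tbx21, Il12rb1, Il17a and Foxp3 in control hearts and at D10, where most hearts held under 10 reads. A difference that was not called at those levels is not shown to be absent.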
